A study of Mus musculus with 4 samples.

Results

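Liver mononuclear cells of C57BL/6 mice that received concanavalin A (ConA) and then TCDD (ConA+TCDD) were compared, gene by gene, with those of mice that received ConA and then vehicle (ConA+Veh). ConA, a plant lectin that activates T cells and causes an acute immune hepatitis, was common to both groups. TCDD is a dioxin and a strong ligand of the aryl hydrocarbon receptor (AhR); according to the methods of the study, TCDD or vehicle followed ConA by 1 h. The mice were 8 to 10 weeks old, cells were taken 24 h after ConA, and mononuclear cells were enriched from dissociated liver on a Percoll gradient. The comparison used 2 of the 4 samples of the series, each 1 library of 10x Genomics 5′ single-cell RNA sequencing, and these held 4659 of its 9300 cells. The other samples, Naïve (no ConA) and ConA+FICZ (ConA and then the AhR ligand FICZ), are given only beside these values. How many mice stood behind a library was not given in the sources used here, so treatment, mouse and library preparation cannot be told apart.

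The genes described were the 9977 of 31053 that reached 100 unique molecular identifiers (UMIs, each a captured RNA molecule) over both libraries. UMIs were summed over cells and scaled to counts per 1000000 (CPM), for all cells and within 5 gates set by marker genes: B, T, natural killer (NK), myeloid (mononuclear phagocytes) and endothelial cells. Paired values below give ConA+Veh first and ConA+TCDD second, and a signed number is the log2 ratio of ConA+TCDD CPM to ConA+Veh CPM, followed where a range is given by its exact binomial 95% interval. With 1 library a side no test was possible, and all intervals cover counting error only. In an all-cell value, fewer cells of a type and less RNA per cell cannot be told apart.

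Without a ligand, AhR waits in the cytoplasm with chaperones; bound by a ligand it enters the nucleus, pairs with ARNT and binds DNA that holds the core GCGTG. Its best known targets are the cytochrome P450 gene *Cyp1a1*, the AhR repressor *Ahrr* and the ADP-ribosyltransferase *Tiparp*. After ConA, interferon-γ from T and NK cells acts on most other cells of the liver.

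The 4 libraries held 1880 to 2779 cells and 5952445 to 19252211 UMIs, and the median cell of the pair compared held 3984 and 3761.5 UMIs. Every pair of libraries shared 4 to 15 cell barcodes, and this pair shared 6. The own markers of the B, T, NK and myeloid gates were all detected in both libraries, and 1 of 10 endothelial markers was at 0 in the 9 endothelial cells of ConA+TCDD.

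Gate shares differed between the libraries. T cells were 740 and 589 cells, which is 26.6% (25.0 to 28.3) and 31.3% (29.2 to 33.5) of the library. B cells were 20.7% (19.2 to 22.2) and 16.3% (14.6 to 18.0), and NK cells 7.66% (6.70 to 8.72) and 7.82% (6.65 to 9.13). The myeloid gate held 253 and 64 cells, or 9.10% (8.06 to 10.2) and 3.40% (2.63 to 4.33), and the endothelial gate 62 and 9 cells, or 2.23% (1.71 to 2.85) and 0.479% (0.219 to 0.907). Cells outside every gate were 15.0% (13.7 to 16.4) and 27.0% (25.0 to 29.1). Of these 6 classes, NK cells alone had shares whose intervals held each other's value. Of the cells left out for meeting 2 classes, 243 and 76 met both the B and the myeloid gate; B cells also carry the myeloid markers *Ctss*, *Cst3* and *Cybb*. Without those 3 markers, a choice made after the data were seen, the log2 ratio of the myeloid share went from -1.42 to -2.13.

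Over all cells more genes were lower than higher in ConA+TCDD. Of 9977 genes, 51 were 2-fold or more higher (0.511%) and 396 were 2-fold or more lower (3.97%), with a median of -0.04, and the whole interval lay past 2-fold for 28 and 217 of them. In B cells 22 of 3720 genes were 2-fold higher (0.591%) and 34 lower (0.914%). T cells had 15 of 7635 higher (0.196%) and 33 lower (0.432%), and NK cells 3 of 1730 higher (0.173%) and 5 lower (0.289%). Myeloid cells had 23 of 3614 higher (0.636%) and 118 lower (3.27%), and endothelial cells 20 of 516 higher (3.88%) and 67 lower (13.0%). Ratios were below 0 for 55.2% of genes over all cells, 49.3% in B cells, 56.5% in T cells, 55.1% in NK cells and 51.0% in myeloid cells. A gene had to reach 100 UMIs within a gate, so the gates of fewer cells hold only abundant genes. Immunoglobulin and T cell receptor segments, which follow single clones, are in these counts but are not named.

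**Figure D1:**
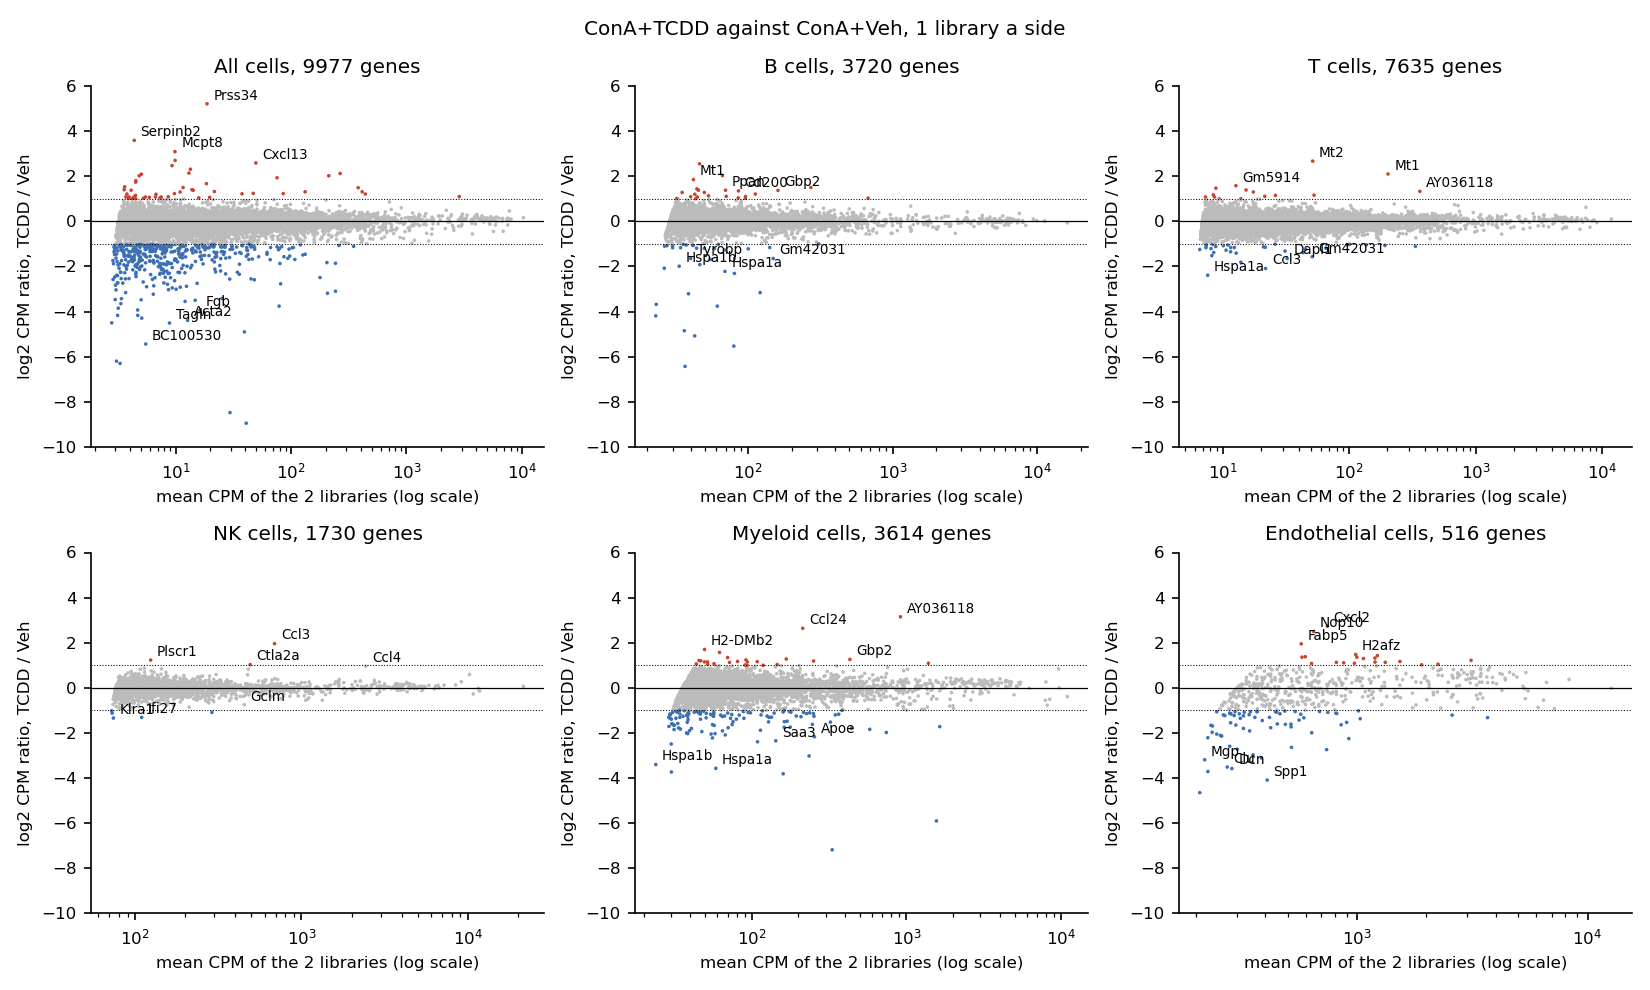
Log2 CPM ratio of ConA+TCDD to ConA+Veh (vertical axis) against the mean CPM of the 2 libraries (horizontal axis, log scale), 1 point per gene of 100 or more UMIs, for all cells and 5 gates. Red and blue points are 2-fold or more higher and lower, dotted lines mark 2-fold, and genes named by the largest bounds are labelled; over all cells 396 points lie below and 51 above, and in myeloid cells 118 and 23.

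The metallothionein gene *Mt1* (GRCm38, chr8:94179082-94180327, plus strand in the GENCODE annotation) was 2-fold or more higher in 3 gates, and no other of the 2975 genes counted in at least 3 gates was. Metallothioneins are small proteins that bind zinc and other metals. In T cells *Mt1* was at 115 CPM in Naïve, 77.0 in ConA+Veh, 329 in ConA+TCDD and 229 in ConA+FICZ, a 4.27-fold difference within the pair (2.10, 1.97 to 2.23). *Mt2*, its neighbour (GRCm38, chr8:94172664-94173568, plus strand), was at 31.5, 14.0, 89.1 and 49.2 CPM in the same order (2.67, 2.38 to 2.97). For both genes ConA+Veh was the lowest library and Naïve the next. B cells had 18.2 and 65.5 CPM of *Mt1* (1.85, 1.29 to 2.42), a ratio that a stricter B cell gate brought to 0.71. Endothelial cells had 1876 and 4370 CPM (1.22), with 164 of 274 ConA+TCDD UMIs in 1 cell and a ratio of 0.52 without the top cell of each library. Myeloid cells had 713 and 1207 CPM (0.76, 0.63 to 0.88). NK cells, with 62 and 34 UMIs of *Mt1*, did not reach the minimum. The other 10 genes of zinc and metal handling, mostly transporters, lay between -0.38 and 0.47 over all cells, none of them 2-fold apart.

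Among T cells the *Mt1* difference was uneven. T cells with a *Cd4* UMI and no *Cd8a* or *Cd8b1* UMI had 107 and 117 CPM (0.13, -0.23 to 0.49), those with a *Cd8a* or *Cd8b1* UMI and no *Cd4* UMI 65.2 and 151 CPM (1.21), and those with neither 106 and 887 CPM (3.07, 2.82 to 3.33). *Mt2* was at 1.61 in CD4 T cells, 1.23 in CD8 T cells and 4.12 in T cells with neither. For both genes the largest ratio lay in T cells in which no co-receptor was detected, which made up 7.56% of ConA+Veh and 13.0% of ConA+TCDD cells. With only T cells that held a co-receptor UMI, a choice made after the data were seen, the T cell ratio of *Mt1* was 0.92. An *Mt1* UMI was present in 4.38% (3.02 to 6.13) and 13.6% (10.9 to 16.7) of T cells thinned to 1000 UMIs and in 16.4% and 27.8% unthinned. Thinned shares, here and below, leave out the cells of fewer than 1000 UMIs. B cells, with the lowest level of these gates in ConA+Veh, gave 1.92% and 3.53% thinned. Myeloid cells gave 32.7% and 31.7% thinned, NK cells 3.02% and 1.46%, and cells outside every gate 21.5% and 18.7%. In these last classes the share was thus not higher in ConA+TCDD.

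The inducible heat shock protein 70 gene *Hspa1a* (GRCm38, chr17:34969190-34972156, minus strand) was 2-fold or more lower in 3 gates, again alone among those genes. B cells had 262 and 29 UMIs (114 and 24.3 CPM; -2.22, -2.83 to -1.67), T cells 12.8 and 2.44 CPM (-2.39, -3.27 to -1.60) and myeloid cells 108 and 9.10 CPM (-3.57, -5.03 to -2.43). Naïve B, T and myeloid cells had 144, 108 and 217 CPM and those of ConA+FICZ 109, 15.1 and 27.3 CPM. ConA+TCDD was therefore the lowest of the 4 libraries in each of the 3 gates. *Hspa1b*, so alike in sequence that reads can be split between the pair, had 103 and 0 UMIs in myeloid cells, at least 10.5-fold lower against a floor of 3 UMIs per library. Most other chaperones lay nearer to 0. Of 30 heat shock and chaperonin genes counted over all cells, 2 were 2-fold lower, where 3.97% of all genes were, and 0 higher (median 0.06). *Hsp90ab1*, a constitutive chaperone that also holds AhR, was at 5454 and 5831 CPM (0.10, 0.08 to 0.11). In NK and myeloid cells 18 of 22 and 16 of 26 heat shock and chaperonin genes were below 0 (medians -0.14 and -0.07). Of all genes there 55.1% and 51.0% were below 0. The constitutive *Hspa8*, taken up after its values were seen, was at -0.22, -0.20, -0.14 and -0.54 in B, T, NK and myeloid cells.

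**Figure D2:**
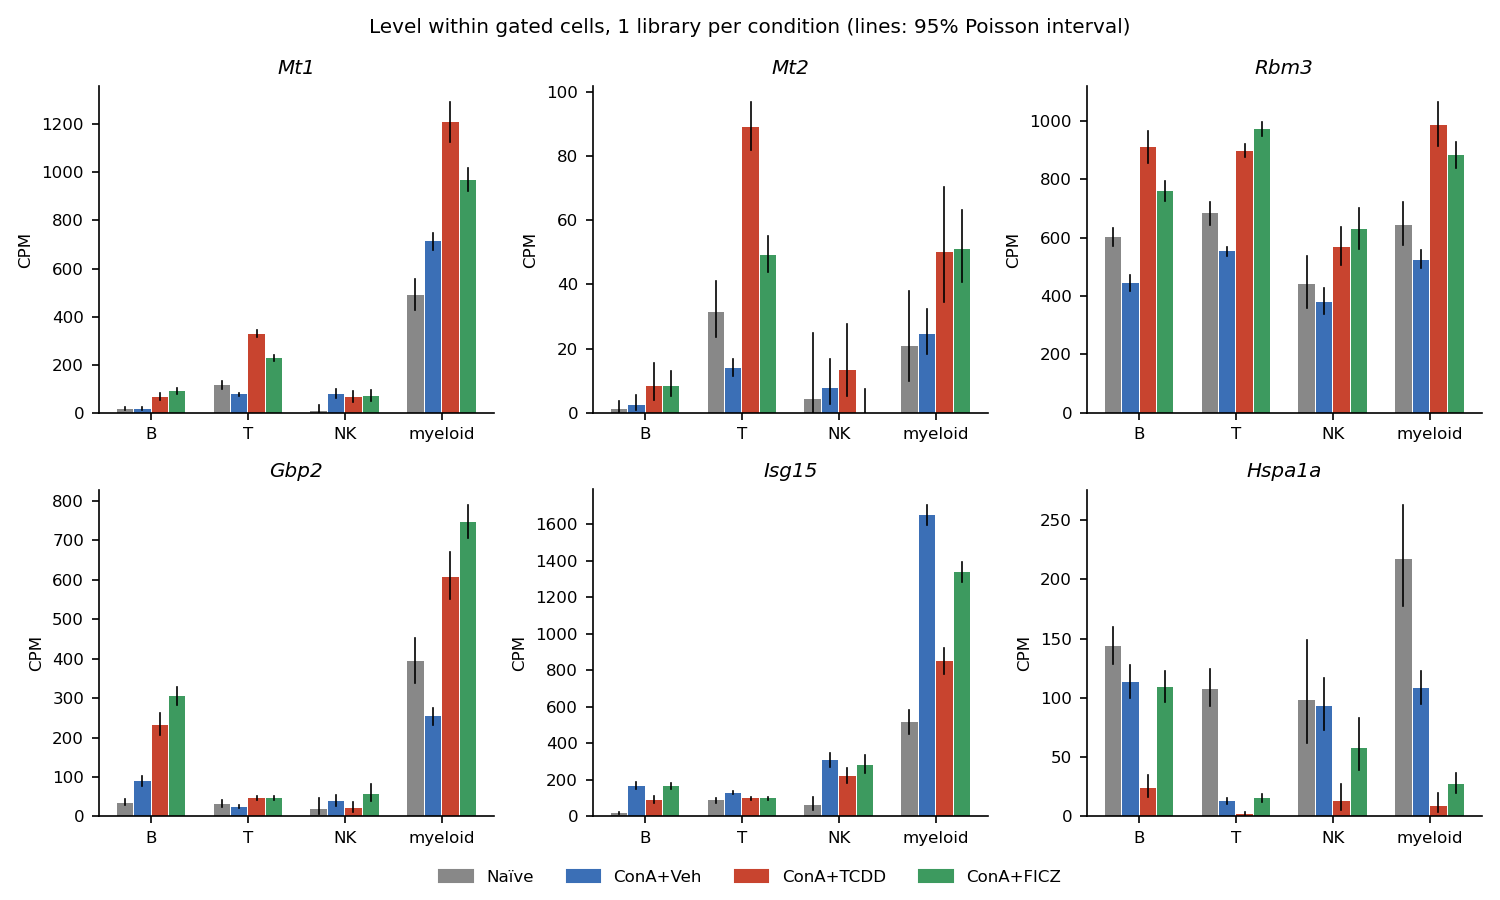
CPM (vertical axes, from 0) of *Mt1*, *Mt2*, *Rbm3*, *Gbp2*, *Isg15* and *Hspa1a* in B, T, NK and myeloid cells of the 4 libraries, with 95% Poisson intervals as lines. In T cells *Mt1* and *Mt2* stand at 329 and 89.1 CPM in ConA+TCDD above 77.0 and 14.0 in ConA+Veh, and *Hspa1a* is lowest in ConA+TCDD in B, T and myeloid cells.

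The DNA just before 5 of the genes that carry these results is printed because such genes are known for different response elements. Each line holds the 250 bases before the RefSeq start (GRCm38.p6), 5′ to 3′ on the strand of the gene. Capitals mark, on either strand, a loose metal response pattern, TGCNCNC, for *Mt1* and *Mt2*. N stands for any base, so this pattern is looser than the metal response core itself. For *Hspa1a* capitals mark the heat shock repeat (GAA and TTC with 2 bases between). For *Isg15* and *Gbp2* they mark the interferon response repeat (GAAA and GAAA with 2 bases between).
Mt1 (chr8:94178839-94179088, plus strand): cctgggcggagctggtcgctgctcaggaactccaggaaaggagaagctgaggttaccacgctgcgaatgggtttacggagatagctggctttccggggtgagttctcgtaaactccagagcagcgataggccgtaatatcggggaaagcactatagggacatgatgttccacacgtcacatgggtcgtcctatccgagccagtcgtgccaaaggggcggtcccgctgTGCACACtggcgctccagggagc
Mt2 (chr8:94172368-94172617, plus strand): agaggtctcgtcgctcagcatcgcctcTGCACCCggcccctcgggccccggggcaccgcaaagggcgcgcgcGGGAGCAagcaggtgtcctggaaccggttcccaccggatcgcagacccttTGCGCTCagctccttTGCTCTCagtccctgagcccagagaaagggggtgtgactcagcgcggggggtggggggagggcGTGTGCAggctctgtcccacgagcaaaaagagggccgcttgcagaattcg
Hspa1a (chr17:34972157-34972406, minus strand): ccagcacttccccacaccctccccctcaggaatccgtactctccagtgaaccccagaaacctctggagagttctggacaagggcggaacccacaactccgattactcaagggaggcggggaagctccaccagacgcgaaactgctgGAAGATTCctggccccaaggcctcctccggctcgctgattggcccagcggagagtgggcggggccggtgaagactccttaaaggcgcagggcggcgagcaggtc
Isg15 (chr4:156200819-156201068, minus strand): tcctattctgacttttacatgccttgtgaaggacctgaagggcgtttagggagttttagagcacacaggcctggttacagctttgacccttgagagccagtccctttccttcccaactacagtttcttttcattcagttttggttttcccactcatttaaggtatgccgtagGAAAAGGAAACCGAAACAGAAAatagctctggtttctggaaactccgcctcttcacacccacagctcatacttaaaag
Gbp2 (chr3:142620413-142620662, plus strand): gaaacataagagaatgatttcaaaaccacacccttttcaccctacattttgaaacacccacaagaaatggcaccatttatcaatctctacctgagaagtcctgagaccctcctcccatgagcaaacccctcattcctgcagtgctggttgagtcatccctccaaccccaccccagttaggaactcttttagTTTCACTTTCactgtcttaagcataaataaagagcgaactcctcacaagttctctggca

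The loose metal response pattern stood at 1 place before *Mt1* and at 5 before *Mt2*, and 44.4% of 32851 windows of this length hold it. A place with this pattern need not hold the metal response core itself. The heat shock repeat stood at 1 place before *Hspa1a* (6.69% of windows), and the interferon response repeat at 3 overlapping places before *Isg15* and 1 before *Gbp2* (2.98% of windows). The AhR core GCGTG stood at 1 place before each of *Mt1* and *Mt2* and at no place before *Hspa1a*, *Isg15* and *Gbp2*. Of all windows 28.2% hold it. These are matches of letters, not shown to be sites. The *Mt2* window ends short of the GENCODE gene start given above, and the *Mt1* window runs past it. Places were counted from the RefSeq start only, and other starts were not tried.

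Genes of the AhR pathway were in part too low to count. Over all cells 11 of 22 genes of AhR signalling and its targets were counted, with a median of -0.09 against -0.04 over all genes, and 1 was 2-fold higher, where 0.511% of all genes were. That gene, the protease inhibitor *Serpinb2*, had 13 and 98 UMIs (3.59, 2.75 to 4.55), of which 79 in ConA+TCDD came from 1 cell, and 2.34 without the top cells. The receptor *Ahr* was at 31.6 and 35.3 CPM over all cells (0.16, -0.02 to 0.34) and at 28.6 and 60.4 CPM in B cells (1.08, 0.58 to 1.58). *Tiparp* was at 33.8 and 32.0 CPM over all cells (-0.08, -0.26 to 0.11). *Cyp1a1* fell short of the minimum, with 24 UMIs in Naïve, 2 in ConA+Veh, 17 in ConA+TCDD and 104 in ConA+FICZ. Of the 17, 14 lay in endothelial cells and 13 in 1 cell, and of the 104, 94 lay in endothelial cells. *Ahrr* had 2, 0, 1 and 10 UMIs in that order. A difference of *Cyp1a1* or *Ahrr* within lymphocytes was not detectable at this depth.

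The genes highest over all cells came from rare cells. *Prss34*, a basophil and mast cell protease, had 19 and 441 UMIs (5.21, 4.55 to 5.96), with 350 of the 441 in 1 of 5 cells and 18 of the 19 in 1 of 2. *Mcpt8*, a basophil protease, had 40 and 214 UMIs (3.09, 2.60 to 3.62) in 13 and 5 cells. *Cxcl13*, a chemokine that draws B cells into follicles, had 273 and 1028 UMIs (2.59, 2.39 to 2.78), of which 269 and 932 lay in 1 cell each, with a ratio of 5.26 without them. These 3 ratios rest on a handful of cells. The next group was erythroid, with 7 of 11 genes counted 2-fold higher, where 0.511% of all genes were. None was 2-fold lower, and the median was 1.21. *Hba-a1* and *Hba-a2*, near-identical α-globin genes that can share reads, were at 99.7 and 433 CPM (2.12) and 83.8 and 341 CPM (2.02). Without cells of under 200 genes or over 10% mitochondrial UMIs these ratios were 1.25 and 1.05. Naïve and ConA+FICZ had 1238 and 28.5 CPM of *Hba-a1* and 1027 and 20.3 CPM of *Hba-a2*. The red cell anion exchanger *Slc4a1* was at 2.65 and 17.2 CPM (2.70, 2.25 to 3.17). Cells in which globin made up over 10% of UMIs were 2.30% and 4.20% of the libraries.

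The genes lowest over all cells are known from macrophages, neutrophils, stromal cells, endothelial cells and hepatocytes. *C1qc*, a complement C1q chain made by macrophages, had 2725 and 250 UMIs (142 and 20.7 CPM; -2.77, -2.97 to -2.59). *BC100530*, a stefin-like gene, had 207 and 3 UMIs (-5.44, -7.73 to -3.87), all in neutrophils, a class of 3.53% and 2.13% of cells. The 207 UMIs lay in 5 cells, with 143 in 1 cell, and the ratio was -5.33 without the top cells. Smooth muscle actin *Acta2* and its partner *Tagln* had 468 and 14 UMIs (-4.39) and 328 and 9 UMIs (-4.51), and 449 of the 468 *Acta2* UMIs lay in cells outside every gate, 255 of them in 1 cell. The fibrinogen chain *Fgb* and the heme carrier *Hpx*, both made by hepatocytes, were at 30.5 and 1.99 CPM (-3.94) and 22.3 and 1.90 CPM (-3.55), with ratios of -3.03 and -2.31 without the cells of few genes or high mitochondrial share. Of the 587 *Fgb* UMIs of ConA+Veh, 62 lay in hepatocyte-gated cells and 345 in cells outside every gate. *Npy*, a neuropeptide, had 178 and 10 UMIs, 131 and 5 of them in endothelial cells. All 18 hepatocyte genes counted were 2-fold or more lower, where 3.97% of all genes were, with a median of -2.53. Naïve and ConA+FICZ had 7.06 and 458 CPM of *Fgb* and 8.23 and 341 CPM of *Hpx*. Cells gated as hepatocytes numbered 3 and 0, and the part of free hepatocyte RNA was not tested. Further genes were singled out after their values were seen. *Il1b*, the cytokine interleukin-1β, was at 110 and 46.1 CPM (-1.26, -1.40 to -1.12), mostly in myeloid cells and neutrophils. *Jchain*, which joins antibody units in plasma cells, had 1138 and 2 UMIs, with 648 and 397 in 2 ConA+Veh cells.

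Part of these differences went with the shares of the cell classes. For each gene the ConA+Veh level within a class was weighted by that class's share of ConA+TCDD UMIs, first with B, T, NK, myeloid, endothelial and neutrophil classes and all remaining cells as 1 pool. For the 51 higher genes the median ratio was 1.31 observed and 0.06 from shares, and for the 396 lower genes -1.48 observed and -0.61 from shares, which gave a ratio below 0 for 354 and past 2-fold for 20 of them. That pool held classes whose own shares differed: cells outside every gate had 4.82% and 11.8% of UMIs, erythroid cells 0.413% and 0.966%, and cells of 2 classes 18.3% and 11.5%. With each of these as a class of its own, a choice made after the data were seen, shares gave medians of 0.28 for the higher and -0.47 for the lower genes, and reached 2-fold for 16 and 8 of them. For *Hba-a1* shares then gave 1.21 of 2.12, for *Prss34* 1.25 of 5.21, and for *Mt2* 0.48 of 1.93. Cells outside every gate and cells of 2 classes stay mixed, and the loss of 1 kind of cell within a class is not counted as share. For *Acta2*, *Fgb* and *Jchain* shares gave 1.24, 0.78 and -0.67, with -4.39, -3.94 and -8.48 observed. How much of the differences cell makeup gives in full was therefore not measured.

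**Figure D3:**
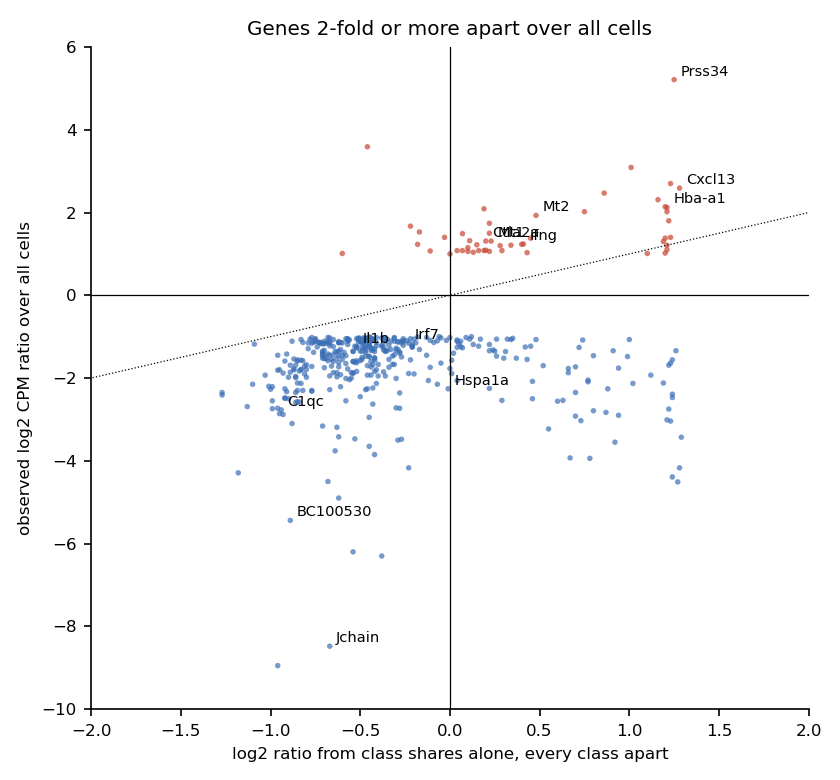
Observed log2 ratio over all cells (vertical axis) against the log2 ratio that class shares alone would give with every class apart (horizontal axis), 1 point per gene 2-fold or more higher (red) or lower (blue). On the dotted line the 2 are equal; red points have a median of 0.28 and blue points of -0.47 on the horizontal axis.

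Genes of the type I interferon response were lower as a group. Of 51 counted over all cells, 50 were below 0 and 13 were 2-fold lower, where 55.2% and 3.97% of all genes were. The list's median was -0.70 against -0.04 over all genes, and 0 of its genes were 2-fold higher. The medians within gates were -0.39 in B cells (22 of 27 below 0), -0.49 in T cells (32 of 34), -0.31 in NK cells (12 of 13) and -0.53 in myeloid cells (37 of 44). Of all genes in these gates 49.3%, 56.5%, 55.1% and 51.0% were below 0. *Irf7*, the transcription factor that amplifies the response, was at 119 and 60.4 CPM in B cells (-0.98, -1.37 to -0.60), 121 and 76.4 in NK cells (-0.67) and 515 and 262 in myeloid cells (-0.97, -1.21 to -0.74). *Isg15*, a ubiquitin-like protein, was at 515 CPM in Naïve, 1650 in ConA+Veh, 851 in ConA+TCDD and 1336 in ConA+FICZ in myeloid cells (-0.96, -1.09 to -0.83 within the pair). The ConA+TCDD level lay below both other ConA libraries and above Naïve. Among T cells *Isg20*, an RNA exonuclease, was at 30.0 and 13.5 CPM (-1.15, -1.53 to -0.79) and the abundant *Ifi27l2a* at 842 and 601 CPM (-0.49), while *Slfn2*, a T cell quiescence gene, was at 172 and 196 CPM (0.18, 0.07 to 0.30). In myeloid cells the RNA-binding *Ifit3* and *Ifit1* were at 67.5 and 25.8 CPM (-1.39) and 74.9 and 33.4 CPM (-1.17). Myeloid cells with 10 or more UMIs of the 3 C1q genes were 55.3% and 28.1% of the gate, and in those with no C1q UMI the list's median was -0.26 over 13 genes. By T cell kind the medians were -0.33 in CD4, -0.35 in CD8 and -0.97 in cells with neither co-receptor.

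Targets of interferon-γ did not go with them in B cells. Of 17 interferon-γ-induced GTPases and partners counted there, 13 were above 0 and 3 were 2-fold higher (median 0.42 against 0.00). Of all B cell genes 50.7% were above 0 and 0.591% 2-fold higher. *Gbp2*, a guanylate-binding protein of cell-autonomous defence, was at 35.2 CPM in Naïve, 90.2 in ConA+Veh, 232 in ConA+TCDD and 305 in ConA+FICZ (1.37, 1.10 to 1.63 within the pair). Its relatives *Gbp7* and *Gbp4*, between which reads can be split, were at 26.0 and 59.6 CPM (1.20, 0.68 to 1.72) and 33.4 and 73.0 CPM (1.13, 0.67 to 1.59). The share of B cells with a *Gbp2* UMI was 7.29% (5.21 to 9.87) and 15.2% (11.2 to 19.9) thinned to 1000 UMIs and 21.9% and 36.6% unthinned, against 2.74% and 4.82% of thinned T cells, a class with less of it. Myeloid cells had a median of 0.44 over 18 genes, with *Gbp2* at 254 and 608 CPM (1.26, 1.07 to 1.45), but the median was -0.01 without the 3 markers that B cells share. T cells had a median of -0.12 and NK cells of 0.01. *Ifng* itself was at 28.0 and 66.2 CPM over all cells (1.24, 1.08 to 1.40), 28.4 and 39.8 in T cells (0.48, 0.22 to 0.75) and 245 and 368 in NK cells (0.59, 0.29 to 0.88). Cells outside every gate held 91 of 540 and 294 of 800 of its UMIs.

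**Figure D4:**
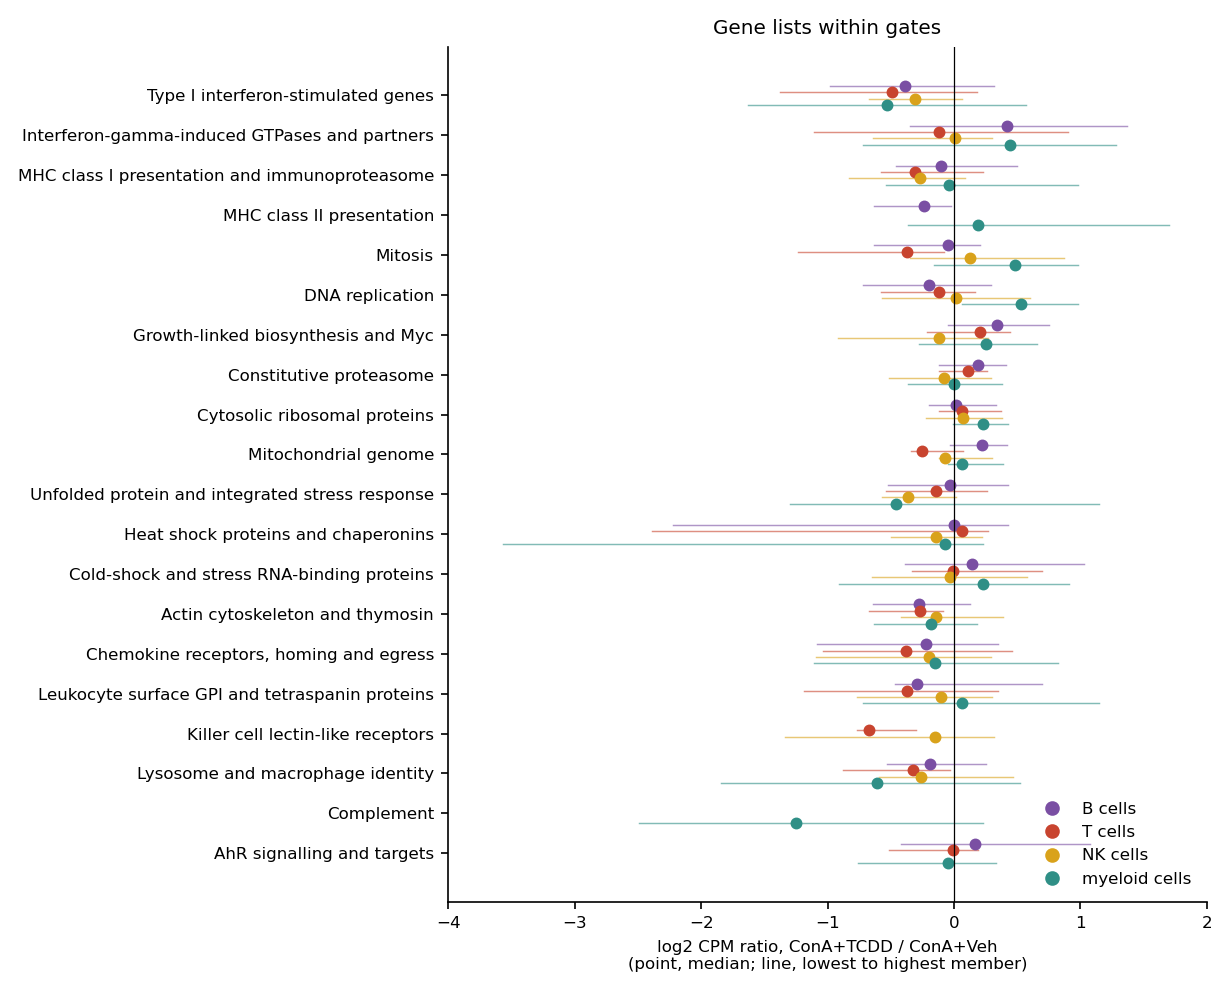
Log2 CPM ratio (horizontal axis) of 20 gene lists in B, T, NK and myeloid cells; points are medians and lines run from the lowest to the highest member. Type I interferon genes have medians below 0 in all 4 gates, and mitosis genes have medians of -0.37 in T cells and 0.48 in myeloid cells.

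Mitosis genes were lower in T cells, and mitosis and DNA replication genes were higher in myeloid cells. All 46 mitosis genes counted in T cells were below 0 (median -0.37 against -0.04), and 2 were 2-fold lower. Of all T cell genes 56.5% were below 0 and 0.432% 2-fold lower. *Ccnb2*, a mitotic cyclin, was at 63.6 and 27.0 CPM (-1.23, -1.50 to -0.98), and *Ube2c*, which serves the anaphase-promoting complex, at 260 and 124 CPM (-1.07, -1.20 to -0.95). Naïve T cells had 8.60 and 13.8 CPM of them and ConA+FICZ T cells 46.5 and 176. By T cell kind the medians were -0.30 in CD4, -0.18 in CD8 and -0.85 in cells with neither. DNA replication genes of T cells were below 0 for 31 of 38 (median -0.12). In CD4 T cells 26 of 30 were instead above 0 (median 0.17), where the median over all 2933 genes counted was 0.00. In myeloid cells 25 of 26 mitosis and 23 of 23 DNA replication genes were above 0 (medians 0.48 and 0.53), where 49.0% of all genes were. In myeloid cells with no C1q UMI 11 of 18 and 6 of 6 were (0.17 and 0.51). The median over all 1331 genes counted there was 0.03. What share of all genes lay above 0 in these cells or in CD4 T cells was not taken, so these counts have no such base. *Birc5*, a chromosomal passenger protein, was at 129 and 238 CPM in the whole myeloid gate (0.88, 0.59 to 1.17). *Dut*, which keeps uracil out of DNA, was at 136 and 268 CPM (0.98, 0.70 to 1.25). Growth-linked genes of ribosome and nucleotide synthesis were above 0 for 33 of 34 in B cells (median 0.34) and 35 of 38 in T cells (0.21), but for 5 of 21 in NK cells (-0.12). Of all genes in these gates 50.7%, 43.5% and 44.9% were above 0. *Nop58*, of the nucleolus, was at 123 and 206 CPM in B cells (0.75).

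Smaller differences in one direction were shared by the 4 larger gates. Of 1528 genes counted in each of B, T, NK and myeloid cells, 32 had the whole interval above 0 in all 4, 17 of them cytosolic ribosomal protein genes, and 18 had it below 0. The cold-inducible RNA-binding protein *Rbm3* was at 444 and 910 CPM in B cells (1.03, 0.91 to 1.16), 553 and 898 in T cells (0.70), 380 and 569 in NK cells (0.58) and 525 and 987 in myeloid cells (0.91). ConA+FICZ had 759, 971, 629 and 882 CPM and Naïve 601, 683, 443 and 645 CPM in the same gates, so that ConA+Veh was the lowest of the 4 libraries in each. In B cells the ratio was 0.78 under a stricter gate and 0.59 with myeloid markers that leave out those B cells share. *Cirbp*, the other cold-inducible gene of this kind, was at 34.9 and 66.7 CPM over all cells (0.93, 0.78 to 1.08), while the 20 stress RNA-binding genes as a list had a median of 0.10. *Gna13*, a G protein subunit, was at 0.69, 0.48, 0.44 and 0.64 in B, T, NK and myeloid cells, and *Cox17*, a copper chaperone, at 0.90, 0.46, 0.73 and 0.43. Below 0 were *Irf7*, *Isg15*, *Rnf213* and the actin cytoskeleton genes *Actb*, *Tmsb4x* and *Lcp1*. So was *Gclm*, a subunit of glutathione synthesis, at -0.41, -0.37, -0.75 and -0.37. These genes were chosen after their values were seen. The lymphocyte GTPase *Gimap5* was at 137 and 265 CPM over all cells (0.95, 0.87 to 1.02), and its 7 relatives lay between -0.23 and 0.05.

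T cells had lower levels of homing, surface and killer receptor genes. Below 0 were 56.5% of all T cell genes and 18 of the 22 homing and egress genes counted (median -0.38), while *Ccr7*, a chemokine receptor of the list, was at 602 and 680 CPM (0.18). *Ly6c2*, a surface antigen of effector cells, was at 457 and 212 CPM (-1.11, -1.20 to -1.01) and *Cd7* at 91.4 and 39.9 CPM (-1.19, -1.41 to -0.99), among 26 surface protein genes of which 21 were below 0. With only cells that held a *Cd52* UMI *Ly6c2* was at -0.98, and with only T cells that held a co-receptor UMI *Cd7* was at -0.99. All 7 killer lectin-like receptor genes were below 0 (median -0.67), with *Klrd1* at 102 and 59.8 CPM (-0.77). All 31 actin cytoskeleton genes were below 0 too, with a median of -0.27 and *Cotl1*, which binds actin filaments, at 301 and 189 CPM (-0.67). *Dapl1*, a gene of naïve and memory T cells, was at 49.2 and 15.6 CPM (-1.65, -1.99 to -1.33), and *Ltb*, a lymphotoxin subunit, at 184 and 89.4 CPM (-1.04, -1.18 to -0.90). Among higher genes, *Hic1*, a transcriptional repressor, was at 8.44 and 22.2 CPM (1.39, 0.97 to 1.83), *Mrps6*, of the mitochondrial ribosome, at 32.7 and 73.0 CPM (1.16, 0.94 to 1.38) and *Cd200*, an inhibitory surface ligand, at 10.1 and 24.9 CPM (1.30, 0.91 to 1.70). *Hbb-bs*, an adult β-globin, was at 62.6 and 23.9 CPM (-1.39), but 1 ConA+Veh cell held 370 of 519 UMIs and the ratio without the top cells was 0.33.

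B cells had more *Cd200*, at 48.5 and 123 CPM (1.35, 0.98 to 1.71), and more of the costimulatory ligand *Cd86*, at 29.0 and 70.5 CPM (1.28, 0.80 to 1.76). *Cd86* was below 2-fold with ambiguous cells given to the larger marker sum (0.72), with myeloid markers that leave out those B cells share (0.79) and with only cells that held a *Cd52* UMI (0.70). *Ppan*, a ribosome biogenesis factor, was at 38.6 and 101 CPM (1.38, 0.98 to 1.80). All 12 MHC class II presentation genes were below 0, none of them 2-fold (median -0.24), where 49.3% of all B cell genes were below 0. *H2-Oa* was at 220 and 142 CPM (-0.63) and the invariant chain *Cd74* at 16617 and 15844 CPM (-0.07). *Tyrobp*, an adaptor of myeloid and NK cells, was at 60.7 and 19.3 CPM (-1.65, -2.36 to -1.01), and the galectin *Lgals1* at 140 and 60.4 CPM (-1.22, -1.61 to -0.84), which the first 2 of those settings brought to -0.82 and -0.71. The 8 myeloid markers summed to 830 and 727 CPM in B cells, with 2 of 8 at 0 in each library, and the 6 NK markers to 3.47 and 0.839 CPM, with 1 and 5 at 0; their part in the *Tyrobp* ratio was not tested.

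Of the 1730 genes counted in NK cells 3 were 2-fold higher (0.173%) and 5 lower (0.289%). T cells had 0.196% and 0.432%, among 7635 genes counted. The chemokine *Ccl3* was at 282 and 1096 CPM, 3.88-fold higher (1.96, 1.73 to 2.19), and its relatives *Ccl4* and *Ccl5* at 1656 and 3228 CPM (0.96, 0.86 to 1.07) and 8162 and 12319 CPM (0.59, 0.54 to 0.64), while *Xcl1* was at 521 and 521 CPM. In Naïve and ConA+FICZ NK cells *Ccl3* was at 1261 and 637 CPM, *Ccl4* at 3894 and 2731 and *Ccl5* at 18673 and 14870. ConA+Veh was thus the lowest library for *Ccl3*, *Ccl4* and *Ccl5*, and Naïve was the highest. A *Ccl3* UMI was present in 14.1% (9.56 to 19.7) and 24.8% (17.8 to 32.9) of NK cells thinned to 1000 UMIs, 21.6% and 36.1% unthinned, and in 0.192% and 0.707% of thinned B cells. Granule genes were mostly level, with *Gzma* at 21113 and 22104 CPM (0.07) and *Gzmb* at 6368 and 6211 CPM (-0.04), and the pore-forming *Prf1* was at 1585 and 1084 CPM (-0.55, -0.69 to -0.40). The inhibitory receptor *Klra1* was at 106 and 42.0 CPM (-1.34, -2.08 to -0.64). Of 19 unfolded protein response genes counted, 18 were below 0 (median -0.36), where 55.1% of all NK cell genes were. The endoplasmic reticulum chaperone *Hsp90b1* was at 1275 and 897 CPM (-0.51).

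Macrophage genes were lower in the myeloid gate of ConA+TCDD. *C1qb* was at 2521 and 763 CPM (-1.72, -1.86 to -1.59), and 5 of 9 complement genes were 2-fold lower, where 3.27% of myeloid genes were (median -1.25). A *C1qb* UMI was present in 60.4% (54.0 to 66.6) and 34.9% (23.3 to 48.0) of myeloid cells thinned to 1000 UMIs, 70.4% and 45.3% unthinned, and in 0.411% and 0.344% of thinned T cells, which should lack it. *Apoe*, a lipid carrier, was at 416 and 92.5 CPM (-2.17, -2.57 to -1.79), *Hmox1*, which degrades heme, at 905 and 253 CPM (-1.84, -2.07 to -1.61), and *Saa3*, an acute-phase protein, at 239 and 47.0 CPM (-2.35, -2.92 to -1.82). Below 0 were 51.0% of all myeloid genes. Of lysosome and macrophage genes 18 of 19 were below 0 (median -0.61), with *Psap* at 2529 and 1466 CPM (-0.79). So were 20 of 25 unfolded protein response genes (median -0.46), with the chaperone *Hspa5* at 1102 and 682 CPM (-0.69). In myeloid cells with no C1q UMI the medians of these lists were -0.54 and -0.51. *Ccl24*, a ligand of the eosinophil receptor CCR3, was at 59.1 and 368 CPM (2.64, 2.32 to 2.96), with 108 of 243 ConA+TCDD UMIs in 1 cell and a ratio of 2.13 without the top cells. The monocyte chemokines *Ccl2* and *Ccl6* were at 745 and 384 CPM (-0.96) and 1253 and 661 CPM (-0.92). *Ifitm1*, an interferon-induced membrane protein, was at 885 and 1889 CPM (1.09, 0.99 to 1.20).

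Endothelial values rest on few cells. The deepest of the 9 ConA+TCDD cells held 30485 UMIs, 48.6% of that gate's total, and 18 of the 20 genes 2-fold higher had at least 50% of their ConA+TCDD UMIs in 1 cell. Without the top cell of each library 3 of the 20 were still 2-fold higher, and 63 of the 67 lower genes still 2-fold lower. For a lower gene this step can take away most of its few ConA+TCDD UMIs. The 63 therefore do not show that the lower ratios are free of single cells. Without the deepest ConA+TCDD cell 36 endothelial genes were lower. *Cxcl10*, an interferon-induced chemokine, was at 682 and 1707 CPM (1.32, 0.97 to 1.67), and 1.01 without the top cells. *Rspo3*, a Wnt enhancer of central vein endothelium, was at 627 and 79.7 CPM (-2.97, -4.62 to -1.72), and the immediate early factor *Fos* at 689 and 79.7 CPM (-3.11, -4.75 to -1.86). *Spp1* and *Dcn*, genes of biliary and stromal cells, had 222 and 156 UMIs in ConA+Veh and 0 in ConA+TCDD, at least 17.0-fold and 11.9-fold lower, and without the top cells these bounds were -2.75 and -1.33 as log2 ratios.

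B and T cells with no *Cd52* UMI were more frequent in ConA+TCDD. *Cd52* encodes a small GPI-anchored protein abundant on lymphocytes, and it was taken up after its values were seen. Its level was 1973 and 1329 CPM over all cells (-0.57, -0.60 to -0.54). Among T cells of 2000 or more UMIs, 5.54% in Naïve, 1.91% (1.02 to 3.24) in ConA+Veh, 22.6% (19.2 to 26.3) in ConA+TCDD and 5.68% in ConA+FICZ had none. B cells gave 3.52%, 5.98%, 19.2% and 4.65% in that order. T cells with neither co-receptor gave 2.33% (0.637 to 5.85) and 38.1% (31.7 to 44.8) within the pair, and myeloid cells 2.91% and 3.57%, with intervals that overlap. NK cells gave 0.649% (0.0164 to 3.56) and 6.93% (2.83 to 13.8), and CD4 T cells 0.935% (0.0237 to 5.10) and 7.69% (2.88 to 16.0). Both were higher in ConA+TCDD, but with intervals that overlap. Cells outside every gate gave 32.6% in Naïve, 33.9% in ConA+Veh, 57.9% in ConA+TCDD and 66.1% in ConA+FICZ, the highest library there. ConA+TCDD T cells without a *Cd52* UMI were shallower, with a median of 5103 UMIs against 9457 in those with one.

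**Figure D5:**
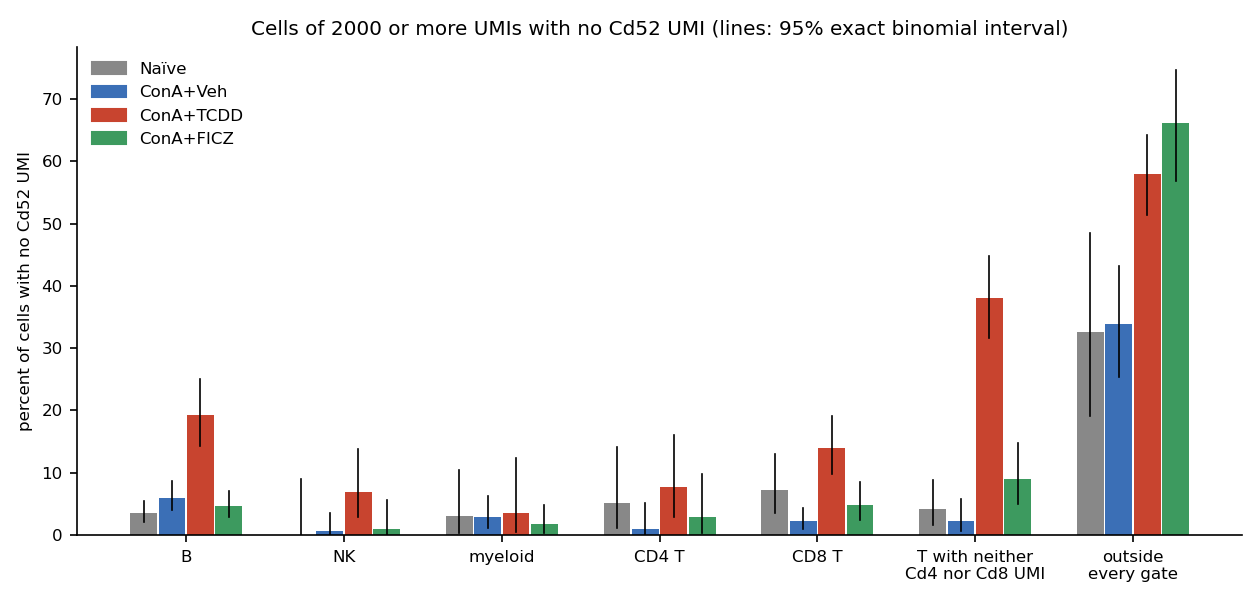
Percent of cells of 2000 or more UMIs that held no *Cd52* UMI (vertical axis, from 0) by cell class and library, with 95% exact binomial intervals as lines. ConA+TCDD is the highest library for B cells (19.2%), CD8 T cells (14.0%) and T cells with neither co-receptor (38.1%). It is also the highest for NK cells (6.93%) and CD4 T cells (7.69%). In NK, CD4 T and myeloid cells the intervals of ConA+Veh and ConA+TCDD overlap. Outside every gate ConA+FICZ is the highest (66.1%).

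Of the *Mt1* UMIs of ConA+TCDD T cells of this depth, 967 lay in the 125 cells without a *Cd52* UMI and 1044 in the other 428 cells. T cells without and with a *Cd52* UMI had 1424 and 193 CPM of *Mt1*, 486 and 39.6 CPM of *Mt2* and 2347 and 721 CPM of *Rbm3*. *Birc5* went the other way, at 11.8 and 241 CPM, as did *Lgals1*, at 38.3 and 435 CPM. ConA+FICZ T cells without and with a *Cd52* UMI, 27 and 448 cells, had 1342 and 197 CPM of *Mt1*, 320 and 41.8 of *Mt2* and 87.1 and 523 of *Lgals1*, but 941 and 977 of *Rbm3*. In Naïve and ConA+Veh, *Mt1* was at 238 and 120 CPM and 274 and 75.9 CPM, on 16 and 11 UMIs in cells without *Cd52*. *Mt1* was thus higher in T cells without a *Cd52* UMI in all 4 libraries, but in Naïve the intervals overlapped (136 to 386 and 103 to 138). With only cells that held a *Cd52* UMI, T cell ratios were 1.35 for *Mt1*, 1.51 for *Mt2* and -2.55 for *Hspa1a*, and the T cell medians were -0.37 for type I interferon genes and -0.25 for mitosis genes. All 5 kept their direction. Which cells these are was not tested, and no UMI does not show that the RNA was absent.

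Cells outside every gate also differed in content. *Rbm3* was at 294 and 1345 CPM in them (2.19), *Ctla2a*, a protease inhibitor of activated T cells, at 186 and 719 CPM (1.95), *Gimap5* at 110 and 412 CPM (1.91) and the cytokine *Mif* at 944 and 2653 CPM (1.49). These genes were chosen after their values were seen. An *Rbm3* UMI was present in 25.9% (20.6 to 31.8) and 57.7% (52.4 to 62.8) of these cells thinned to 1000 UMIs and in 30.5% and 59.4% unthinned. The thinned shares are of 247 and 364 cells, since 170 of 417 and 144 of 508 were too shallow and were left out. *Il4*, a type 2 cytokine, had 350 and 3 UMIs in them, with 272 in 1 ConA+Veh cell, against 175 and 153 UMIs in T cells.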

How the data were processed

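The authors deposited filtered matrices of UMI counts per gene and cell, which were raw counts without normalization, made with Cell Ranger (version 3.0.2 in the matrix header) on mm10 per the submitters' processing notes. Cells entered the B, T and NK gates with 3 or more UMIs over 2 or more markers (NK with at most 1 T marker UMI), the myeloid gate with 6 over 3 and the endothelial gate with 4 over 3; cells with over 10% erythroid or hepatocyte marker UMIs were set apart, and cells of 2 classes left out. Doublets were not called, and no deposited cell was filtered. Gate markers were left out of their own gate. Ratios have exact binomial, levels Poisson and shares Clopper-Pearson intervals (95%). Only ratios and their intervals were checked on simulated counts. These were Poisson draws of summed counts, so they cannot show the effect of UMIs gathered in single cells. Against 0 the floor was 3 UMIs per library. Named were, in each population, the 10 highest and 10 lowest genes by the interval bound nearest to 0, without antigen receptor segments, genes shared by 3 or more gates, and up to 4 members of each list by UMIs or ratio; other genes were chosen after their values were seen, and 1 gene that the rule named is not reported here. The comparison and the 45 gene lists were chosen with earlier results of these data known. Alternatives covered gates, markers, UMI minimums of 50 and 300, scaling, weighting and cell filters. Python 3.11.15, numpy 2.4.6 and scipy 1.17.1 were used.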

Additional observations from a re-analysis of the deposited data

Results flagged for a closer look

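Some genes were 2-fold or more higher in one gate and 2-fold or more lower in another, and this difference between gates was not tested, since each had 1 library a side. *Ccl3* was at 1.96 in NK cells and -2.09 in T cells, where 200 of 294 ConA+Veh UMIs came from 1 cell and the ratio without the top cells was -0.84. *AY036118*, a gene that overlaps the ribosomal RNA locus and whose count is therefore uncertain, was at 1.33 in T cells, 3.15 in myeloid cells, where 470 of 1084 ConA+TCDD UMIs came from 1 cell, and -1.55 in endothelial cells. *Cnn3*, an actin-binding calponin, was at 1.06 in myeloid cells and -1.24 in endothelial cells.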

How the results depend on the processing

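Counts of 2-fold genes moved with the UMI minimum, weighting and depth correction, and the cause was not tested beyond what each setting changes by construction. Higher and lower genes with a minimum of 50 UMIs numbered 96 and 561 in all cells, 51 and 73 in B cells, 30 and 80 in T cells, 16 and 33 in NK cells, 87 and 224 in myeloid cells and 42 and 175 in endothelial cells, and with 300 UMIs 23 and 184 in all cells, 4 and 7 in B cells, 5 and 15 in T cells, 7 and 42 in myeloid cells and 6 and 11 in endothelial cells, with 1 lower in NK cells. With every cell weighted equally they numbered 91 and 492 in all cells and 35 and 63 in B cells. T cells then had 44 and 134, NK cells 6 and 16, myeloid cells 62 and 183 and endothelial cells 15 and 39. The NK mitosis median went from 0.13 to -0.08 and *H2afz* in endothelial cells from 1.48 to -0.05. Without depth correction T cells had 50 lower genes, myeloid cells 106 and 62, endothelial cells 145 and 24, and the endothelial type I interferon median was -0.34. A stricter gate gave 12 higher genes in B cells and 3 lower in NK cells, and took the NK share ratio from 0.03 to -0.15. Endothelial *Cxcl2* went from 2.73 to -2.08 under it, and *Dcn* there had too few UMIs for a ratio. A looser gate gave 6 higher genes in NK cells and took the median from gate shares for the higher genes from 0.06 to -0.10. Giving ambiguous cells to the larger marker sum gave 63 lower genes in B cells. Single cells turned some ratios. *Hbb-bs* in T cells went from -1.39 to 0.33 without the cell richest in the gene, and to 0.40 without the deepest 2% of cells. Endothelial *Cxcl2*, *H2afz* and *Rpl22l1* were at 2.73, 1.48 and 1.38, and at -0.44, -0.70 and -0.33 without the cell richest in the gene.

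Alternatives chosen after seeing the data also moved some values. Myeloid markers without *Ctss*, *Cst3* and *Cybb* gave 55 lower B cell genes and a myeloid share ratio of -2.13. With them the myeloid interferon-γ median went from 0.44 to -0.01 and myeloid *Serpina3g* from 1.28 to -0.93. With every cell class apart, shares gave medians of 0.28 for the higher and -0.47 for the lower genes. T cells with a co-receptor UMI had 9 higher genes. Without the deepest ConA+TCDD endothelial cell 36 endothelial genes were lower, with *H2afz* at -0.75 and *Rpl22l1* at -0.41. Over the named genes and all settings, 1174 ratios stayed within the interval of the reported ratio, 170 moved past it and 10 changed sign. Having 1 library a side leaves mouse and preparation inside every ratio, and counting error limits the smaller gates most. No paired analysis was possible because each group had 1 library.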
